A study of Mus musculus with 2 samples.

Results

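The genes of the leukemia inhibitory factor (LIF) receptor and Stat3 pathway were examined in the RNA-seq profiles of E14 and E14-Sox2TA/WT embryonic stem cells (ESCs). The group held 10 genes, found by symbol in a gene table of 24532 rows, namely Lif, Lifr, Il6st, Jak1, Jak2, Ptpn11, Stat3, Socs3, Pim1 and Pim3. E14 is an established mouse ESC line with wild-type Sox2. E14-Sox2TA/WT cells were derived from E14 by CRISPR/Cas9, carry the T258A change (threonine 258 to alanine) in 1 allele of Sox2 and came from sorted cells grown singly, so that the mutant line is clonal. By the study's methods, E14 was grown in serum with LIF, while the mutant line was in addition kept with PD0325901, a Mek inhibitor, and CHIR99021, a Gsk3 inhibitor, which were taken away some passages before use. Each genotype had 1 library of polyadenylated RNA, and genotype, clone and culture history cannot be told apart.

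LIF is the cytokine that keeps mouse ESCs undifferentiated in serum culture. It binds the receptor subunit Lifr, which pairs with the shared signaling subunit gp130, the product of Il6st. The Jak kinases bound to the receptor then phosphorylate the transcription factor Stat3, which moves to the nucleus and activates genes of self-renewal together with Socs3, whose product binds gp130 and shuts the signal off. The phosphatase Shp2, the product of Ptpn11, docks on the same part of gp130 as Socs3 and links the receptor to the Ras and Erk branch, which favors differentiation. Pim1 and Pim3 are serine/threonine kinases that Stat3 induces in ESCs.

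Because Stat3 acts on promoters and Sox2 is the edited factor, the RefSeq promoter windows of the members (build GRCm38.p6, 250 bases before to 50 bases after a transcription start) were searched for the Stat site TTCNNNGAA, the Sox core CATTGT and the Pou octamer ATGCAAAT on both strands. All 10 genes had a window, and Lifr and Pim1 had a second, giving 12 windows with a GC content from 49.0% to 81.3%. The Stat site was found in 1 of the 12 windows, that of the feedback gene Socs3, against 8.30% of the 32851 windows of all genes. The Sox core was found in 1 window, the second window of Lifr, against 12.6% of all windows, and the octamer in 0, against 1.74%. No site overlapped another. The windows of Socs3, of the second start of Lifr and of Il6st, the member that differed most, are given without the bases after the start and with sites in capitals.
Socs3, chr11:117969367-117969616, minus strand: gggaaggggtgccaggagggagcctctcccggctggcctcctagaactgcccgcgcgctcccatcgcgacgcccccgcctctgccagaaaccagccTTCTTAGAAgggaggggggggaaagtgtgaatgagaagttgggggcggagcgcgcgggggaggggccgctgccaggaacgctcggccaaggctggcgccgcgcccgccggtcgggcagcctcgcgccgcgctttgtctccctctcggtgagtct
Lifr second start, chr15:7140292-7140541, plus strand: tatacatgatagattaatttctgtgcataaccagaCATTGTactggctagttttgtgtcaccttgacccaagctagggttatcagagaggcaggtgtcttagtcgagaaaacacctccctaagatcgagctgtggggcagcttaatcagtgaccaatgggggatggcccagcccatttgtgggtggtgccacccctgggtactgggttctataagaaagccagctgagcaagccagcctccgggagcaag
Il6st, chr13:112463820-112464069, plus strand: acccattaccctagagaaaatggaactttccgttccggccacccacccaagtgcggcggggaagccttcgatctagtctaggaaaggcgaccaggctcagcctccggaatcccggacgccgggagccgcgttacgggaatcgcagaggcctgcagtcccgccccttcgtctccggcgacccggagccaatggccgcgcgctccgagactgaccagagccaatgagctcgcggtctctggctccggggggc
The site of Socs3 begins 154 bases before the start and that of Lifr 215 bases before it. Both of these windows lie inside the gene spans given below, so their starts are not the outermost ends of those genes. A match of letters is a description of these windows, and binding was not measured here.

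The libraries held 60263536 reads in E14 and 44609228 in E14-Sox2TA/WT cells. Intervals given below cover the counting of reads alone, at 95%, and say nothing about variation between cultures, so that no difference has a replicate check. Of the 8 ESC markers, all were present in both libraries at a TPM (a level scaled per length of transcript and per library) of 251.3 or more. In E14-Sox2TA/WT cells 3 of them were higher and 5 lower, and they summed to 12110 in E14 and 9073 in E14-Sox2TA/WT cells. Pou5f1 was at 1725 and 1759, Nanog at 526.9 and 251.3, and Sox2, the edited gene, at 372.5 and 274.2. All 7 primitive endoderm markers were lower in E14-Sox2TA/WT cells, with a summed TPM of 53.6 in E14 and 19.1 in E14-Sox2TA/WT cells. Of the 8 fibroblast markers, 3 were higher, 2 lower and 3 (Dcn, Lum and Postn) without reads. They summed to 49.8 and 19.5, a sum carried by Thy1 (40.1 and 11.4), while Col3a1 was at 0.0799 and 1.28. Of the 7 trophoblast markers, 4 were higher, 2 lower and 1 (Elf5) without reads. They summed to 65.7 and 43.3, carried by Tfap2c (50.9 and 16.1, lower), while Cdx2 was at 0.474 and 12.2 and Eomes at 2.58 and 7.34. The part of such cells in the values below was not tested. In these bulk samples, fewer cells of a type and less RNA per cell cannot be told apart.

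Of the members, Il6st alone was past 2-fold by TPM in E14-Sox2TA/WT cells, and the others differed by less than 1.5-fold on that scale. By TPM, Lifr, Il6st, Jak1, Jak2, Ptpn11 and Stat3 had ratios above 1 and Socs3, Pim1 and Pim3 below 1, but with the GC and length trend described below removed, the log2 ratios of Stat3 (0.03), Jak2 (0.04), Pim1 (-0.07) and Pim3 (-0.01) were near 0. Among other genes of these roles that averaged a TPM of 1 or more, 3 of 4 receptor subunits and 6 of 8 Jak and Stat genes were lower, beside 46.8% of all genes. These are few genes, and not all of them were lower beyond their counting intervals. The adaptors and kinases downstream of Shp2 went the way of Ptpn11, with 14 of 18 higher, beside 53.2%. Il6st was the member that differed most, at 2.27 times its E14 level. Lifr, Jak1, Jak2, Ptpn11 and Stat3 were between 1.15 and 1.47 times their E14 level, and Socs3, Pim1, Pim3 and Lif between 0.696 and 0.933 times. Of the 10 members, 8 reached a TPM of 10 in either library, the filter of the study, and of these 1 was more than 2-fold higher and 0 more than 2-fold lower. Over the whole table, 379 of 9094 genes past the filter (4.17%) were more than 2-fold higher and 370 (4.07%) more than 2-fold lower, 8.24% in all. By read counts scaled to the library total (CPM), Il6st was again the 1 member past 2-fold, beside 8.53% of all genes. At a 1.5-fold threshold by TPM it was still the only 1 of the 8, beside 24.7%. By CPM, Socs3 (log2 ratio -0.67) was past 1.5-fold as well. With a trend on the GC content and length of transcripts removed, 0 of the 8 were past 2-fold, beside 6.95%. Of the members, 6 were higher and 4 lower, beside 53.2% and 46.8% of the genes that averaged a TPM of 1 or more. The median log2 ratio of the members was 0.23, and that of all 13269 genes at this level was 0.04.

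**Figure D1:**
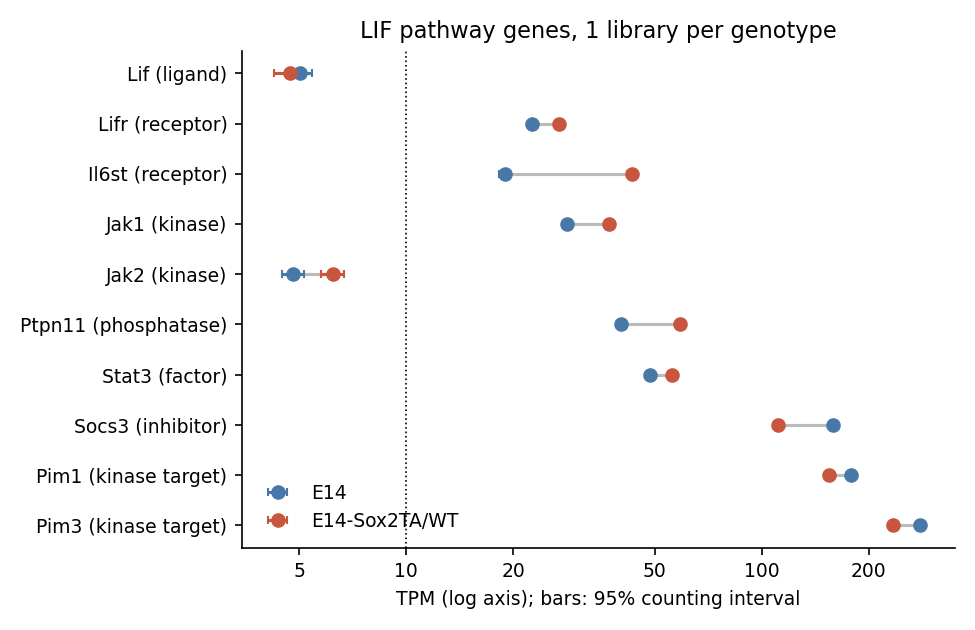
TPM of the 10 members in E14 (blue) and E14-Sox2TA/WT cells (red), 1 library each, on a log axis. Bars are 95% counting intervals and the dotted line marks a TPM of 10. The widest gap is that of Il6st, from 18.9 to 43.1, and the points of Socs3, Pim1 and Pim3 lie in the opposite order.

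The ligand was expressed at a low level (gene positions here and below are those of RefSeq on GRCm38.p6). Lif (Entrez gene 16878, chromosome 11, 4257568 to 4272514) had 652 reads in E14 (TPM 5.05) and 407 reads in E14-Sox2TA/WT cells (TPM 4.71). The log2 ratio was -0.10 with an interval of -0.28 to 0.08, so a difference was not detectable at this depth. Cells in this culture receive LIF with the medium, and the transcript level does not measure that supply.

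The receptor subunits differed unequally. Il6st (Entrez gene 16195, chromosome 13, 112464070 to 112506860) had 3254 reads in E14 (TPM 18.9) and 4957 reads in E14-Sox2TA/WT cells (TPM 43.1), a log2 ratio of 1.18 (1.12 to 1.25). Among the genes that averaged a TPM of 1 or more, 95.8% had a lower ratio. The level of Il6st was above that of 50.6% of these genes in E14 and of 70.1% in E14-Sox2TA/WT cells. By CPM its log2 ratio was 1.04, and with the GC and length trend removed it was 0.73, under 2-fold. The lengths behind this removal are set beside the deposited values below. Lifr (Entrez gene 16880, chromosome 15, 7090610 to 7197489) had 5396 reads in E14 (TPM 22.6) and 5190 reads in E14-Sox2TA/WT cells (TPM 26.9), a log2 ratio of 0.25 (0.20 to 0.31), or 0.12 with the trend removed.

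Lifr was the member whose CPM and FPKM ratios lay farthest apart. Its log2 ratio was 0.38 by CPM and 0.11 by FPKM, a measure that also divides by transcript length, which left a gap of 0.27. Such a gap of more than 0.1 was found at 157 of the 11616 genes with at least 100 reads in both libraries (1.35%). The table lists 2 transcripts for Lifr and 1 for Il6st. Genes of chromosome 15 had a median log2 ratio of -0.20 in these libraries, and relative to it Lifr was at 0.45. Within a library, where scaling between libraries has no part but the transcript length still does, the TPM of Lifr was 1.19 times that of Il6st in E14 (1.14 to 1.25) and 0.625 times in E14-Sox2TA/WT cells (0.601 to 0.650). By TPM the order of the receptor subunits was thus opposite in the 2 libraries. The log2 shift of their ratio was -0.93 by TPM (-1.02 to -0.85), -0.66 by read counts, which use no length, and -0.61 with the trend removed.

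Among the kinases, Jak1 was the more abundant. Jak1 (Entrez gene 16451, chromosome 4, 101151974 to 101265282) had 4745 reads in E14 (TPM 28.4) and 4176 reads in E14-Sox2TA/WT cells (TPM 37.3), a log2 ratio of 0.39 (0.33 to 0.45). Jak2 (Entrez gene 16452, chromosome 19, 29251803 to 29313095) had 766 reads (TPM 4.81) and 663 reads (TPM 6.21), a log2 ratio of 0.37 (0.22 to 0.52). A difference in the balance of these kinases was not detectable (log2 0.02, -0.14 to 0.18), with Jak1 at 5.91 times Jak2 in E14 (5.48 to 6.38) and 6.01 times in E14-Sox2TA/WT cells (5.54 to 6.52). With the GC and length trend removed, Jak1 was at 0.14 and Jak2 at 0.04.

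Ptpn11 (Entrez gene 19247, chromosome 5, 121130533 to 121191397) had 7110 reads in E14 (TPM 40.3) and 6988 reads in E14-Sox2TA/WT cells (TPM 59.1). Its log2 ratio of 0.55 (0.50 to 0.60) was the second highest of the members, and it was moved less by the trend than that of Il6st, to 0.37. Stat3 (Entrez gene 20848, chromosome 11, 100886806 to 100939594) was nearly level, with 6920 reads (TPM 48.7) and 5340 reads (TPM 56.1). The log2 ratio was 0.20 (0.15 to 0.26), and it was 0.06 by CPM and 0.03 with the trend removed. The level of mRNA does not measure the phosphorylated form of Stat3, by which the pathway signals.

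The genes induced by Stat3 were the most abundant of the members. Socs3 (Entrez gene 12702, chromosome 11, 117966079 to 117970336) had 13658 reads in E14 (TPM 159.2) and 6373 reads in E14-Sox2TA/WT cells (TPM 110.9), a log2 ratio of -0.52 (-0.57 to -0.48). With the trend removed, this was -0.35. The TPM of Socs3 was 3.27 times that of Stat3 in E14 (3.18 to 3.37) and 1.98 times in E14-Sox2TA/WT cells (1.91 to 2.05), so that Socs3 relative to its activator was 1.65-fold lower. The log2 of that difference was -0.73 (-0.79 to -0.66), and it was -0.38 with the trend removed.

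Pim3 (Entrez gene 223775, chromosome 15, 88862194 to 88865726) was the most abundant member in both libraries, with 21302 reads in E14 (TPM 279.6) and 11979 reads in E14-Sox2TA/WT cells (TPM 234.6). Its log2 ratio of -0.25 (-0.29 to -0.22) was -0.05 relative to the other genes of chromosome 15, and -0.01 with the trend removed. Pim1 (Entrez gene 18712, chromosome 17, 29490785 to 29496111) had 9879 reads (TPM 178.9) and 5724 reads (TPM 154.7), a log2 ratio of -0.21 (-0.26 to -0.16), or -0.07 with the trend removed. Pim1 shares 488 of its 3362 exon bases with an antisense gene, Gm26885, that has no row in the table. The ratio of Pim1 to Pim3 was 0.640 in E14 (0.625 to 0.655) and 0.659 in E14-Sox2TA/WT cells (0.639 to 0.680), a log2 difference of 0.04 (-0.01 to 0.10) that was not detectable at this depth.

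The order of the members by TPM was largely shared. Pim3, Pim1 and Socs3 were the highest in both libraries, and Lif and Jak2 the lowest. In E14 the neighbours Lif and Jak2 did not differ beyond their intervals, while every other pair of neighbours did, and in E14-Sox2TA/WT cells all neighbours did. Il6st passed Lifr and Jak1 in E14-Sox2TA/WT cells, and Ptpn11 passed Stat3. The interval of the ratio excluded no change for 9 of the members, all but Lif, beside 80.6% of the genes that averaged a TPM of 1 or more, so at this depth such an interval does not set the members apart.

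The ratio of a gene moved with the GC content of its transcript across the whole table. The median log2 ratio was 0.33 in the bin of genes with the lowest GC content (median 38.9%) and -0.18 in the bin with the highest (62.0%). The members that were lower had GC-rich transcripts (53.0% to 61.9%), and those that were higher had transcripts of 44.3% to 52.5%. The receptor subunits, Jak1, Jak2, Stat3 and Ptpn11 summed to a TPM of 163.7 in E14 and 228.7 in E14-Sox2TA/WT cells, with a median log2 ratio of 0.38, or 0.13 with the trend removed. Socs3, Pim1 and Pim3 summed to 617.7 and 500.2, with a median of -0.25, or -0.07. The trend removed also held a length step, taken after that of GC content. Its fitted value was 0.46 for Il6st and 0.14 for Lifr, where the median of the GC bin nearest both (47.4%) was 0.13. For Stat3 it was 0.17, where the nearest GC bin (52.3%) was at -0.01. The parts of GC content and of length in these differences were not tested beyond this removal. The length step used 8678 bases for Il6st and 3392 for Lifr. In E14, Lifr had 89.5 CPM at an FPKM of 11.6, and Il6st had 54.0 CPM at an FPKM of 9.75. As FPKM divides by length, the deposited values place the longer transcript at Lifr. The trend-removed values of both receptor subunits thus rest on lengths that the deposited FPKM does not share. The signs of all 10 members were kept with the trend removed, but only Il6st, Ptpn11 and Socs3 stayed more than 0.3 from 0.

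**Figure D2:**
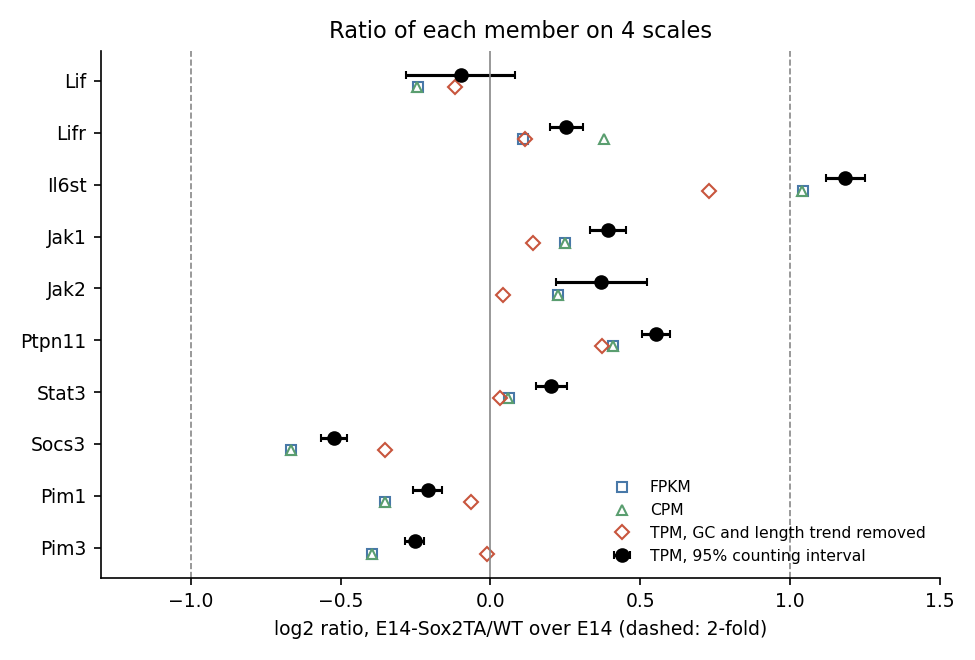
Log2 ratio of each member, E14-Sox2TA/WT over E14, by TPM (black, with 95% counting interval), FPKM (squares), CPM (triangles) and TPM with the GC and length trend removed (diamonds). Dashed lines mark 2-fold, which Il6st passes by TPM, FPKM and CPM, at 1.18, 1.04 and 1.04, and does not pass with the trend removed, at 0.73.

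**Figure D3:**
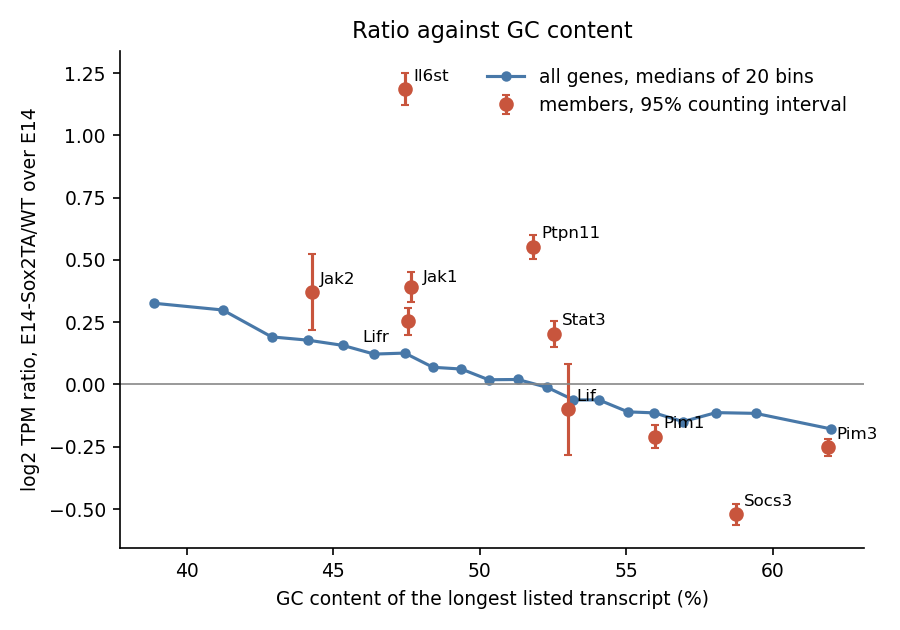
Log2 TPM ratio of each member (red, with 95% counting interval) against the GC content of its longest listed transcript in percent, beside medians of all genes in 20 bins of GC content (blue). The bin medians run from 0.33 down to -0.18, with Lifr, Il6st, Jak1, Jak2, Ptpn11 and Stat3 above them and Socs3, Pim1 and Pim3 below. The length step of the trend is not drawn.

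The other genes of the pathway were taken from lists for each role, 74 genes in all, and named by rule as those past 2-fold and the highest and lowest of each list. Among other genes of the ligand list of the Il6 family, 0 of 9 reached a TPM of 10. Of the 5 that averaged a TPM of 1 or more, 4 were higher and 1 lower, beside 53.2% higher among all genes. Their median log2 ratio was 0.35, or 0.63 with the trend removed. The lowest ratio was that of Clcf1, a cytokine of this family, with 115 and 32 reads (-1.36, -1.98 to -0.79). Il6 and Il27, named after their values were seen, had 0 reads in both libraries, which allows up to 0.0498 CPM in E14 and 0.0673 CPM in E14-Sox2TA/WT cells.

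Among the other receptor subunits, 1 of 6 passed the filter and 0 were past 2-fold. This was Cntfr, which binds ciliary neurotrophic factor and works with Lifr and gp130, with a TPM of 13.3 and 17.2 (0.37, 0.22 to 0.51). The lowest was Il27ra, at 3.06 and 2.14 (-0.52, -0.84 to -0.20). Osmr, the receptor of oncostatin M, named after its values were seen, had 15 reads in E14 (TPM 0.097, 0.054 to 0.160) and 0 in E14-Sox2TA/WT cells. Against a floor of 3 reads this was 3.70-fold lower with the 15 reads taken as exact, and less at the lower end of their interval. Over all 8 receptor subunits of the family, Lifr and Il6st included, the summed TPM was 69.2 in E14 and 98.4 in E14-Sox2TA/WT cells, and the share of Il6st in it was 27.4% and 43.8%.

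No other Jak or Stat gene was past 2-fold under the filter, where 4 of 8 were tested. Of the 8, 6 were lower, beside 46.8% of all genes that averaged a TPM of 1 or more. Tyk2, a kinase of the Jak family, was highest (13.3 and 17.3, log2 ratio 0.37, 0.28 to 0.47). Stat5a was lowest, at 3.82 and 1.26, below the filter (459 and 104 reads, -1.60, -1.92 to -1.29). It shares 72 exon bases with Stat3 on the opposite strand, and whether counting used strand is not given in the sources used here. The 7 Stat genes summed to a TPM of 123.8 and 121.1, of which Stat3 was 39.3% in E14 and 46.3% in E14-Sox2TA/WT cells.

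Of the other Socs genes, 0 of 4 past the filter were past 2-fold. Socs5, an inhibitor that acts on Jak1 and on receptors of growth factors, was highest, at 3.09 and 8.14, below the filter (429 and 756 reads, log2 ratio 1.40, 1.22 to 1.57). Socs1, a direct inhibitor of Jak kinases, was lowest, at 7.92 and 4.27 (327 and 116 reads, -0.89, -1.21 to -0.58). The 8 genes of the family, Cish included, summed to 259.6 and 224.6, and Socs3 made up 61.3% in E14 and 49.4% in E14-Sox2TA/WT cells.

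Among other inhibitors, 1 of 7 genes past the filter was more than 2-fold lower. This was Ptpn2, a phosphatase of Jak and Stat proteins, with a TPM of 99.0 and 48.2 (log2 ratio -1.04, -1.10 to -0.97). Its interval included 2-fold, and its 5733 and 2896 reads gave -0.55 by CPM, under 2-fold and 0.63 from the FPKM ratio. Ptpn1, a related phosphatase, was highest, at 21.8 and 30.0 (0.46, 0.38 to 0.54). The median of this list was -0.53, beside 0.04 for all genes.

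The adaptors and kinases downstream of Shp2 gave 14 higher and 4 lower of the 18 genes that averaged a TPM of 1 or more, beside 53.2% higher among all genes. Their median log2 ratio was 0.22, or 0.13 with the trend removed, and 0 of 16 past the filter were past 2-fold. Gab1, the adaptor that binds Shp2, was highest, at 133.9 and 241.0 (20500 and 24720 reads, log2 ratio 0.85, 0.82 to 0.87), or 0.59 relative to the other genes of its chromosome. Hras was lowest, at 45.3 and 29.7 (-0.61, -0.70 to -0.52).

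Genes that respond to LIF or Stat3 in ESCs were spread widely in both directions. Of 14 past the filter, 4 were more than 2-fold higher and 3 more than 2-fold lower, beside 4.17% and 4.07% of all genes, and the median of the list was -0.01. The higher genes were Gbx2, a homeobox factor of naive cells (TPM 12.4 and 64.2, log2 ratio 2.37), Pim2 (27.1 and 87.1, 1.68), the AP-1 subunit Junb (24.1 and 76.9, 1.67) and the mRNA decay factor Zfp36 (16.4 and 34.5, 1.07). The lower genes were Cebpb, a transcription factor of the acute phase (15.3 and 3.90, -1.97), the T-box factor Tbx3 (153.9 and 55.3, -1.47) and the adhesion molecule Icam1 (156.4 and 72.5, -1.11). The interval of Zfp36 ran from 0.94 to 1.19 and included 2-fold, and by CPM it was at 0.92. Icam1 was at -0.94 with the trend removed. This list was written with earlier results of these data known, and the study itself reports Tbx3 as lower. The count past 2-fold therefore cannot show that such genes differ more often than all genes.

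Within the Pim kinases, Pim2 was thus 3.21 times its E14 level where Pim1 and Pim3 were lower. The TPM of the 3 genes summed to 485.6 in E14 and 476.5 in E14-Sox2TA/WT cells, a log2 ratio of -0.03. The share of Pim2 in this sum was 5.59% and 18.3%, that of Pim3 57.6% and 49.3%, and that of Pim1 36.8% and 32.5%. The families summed here were chosen after the values had been seen.

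**Figure D4:**
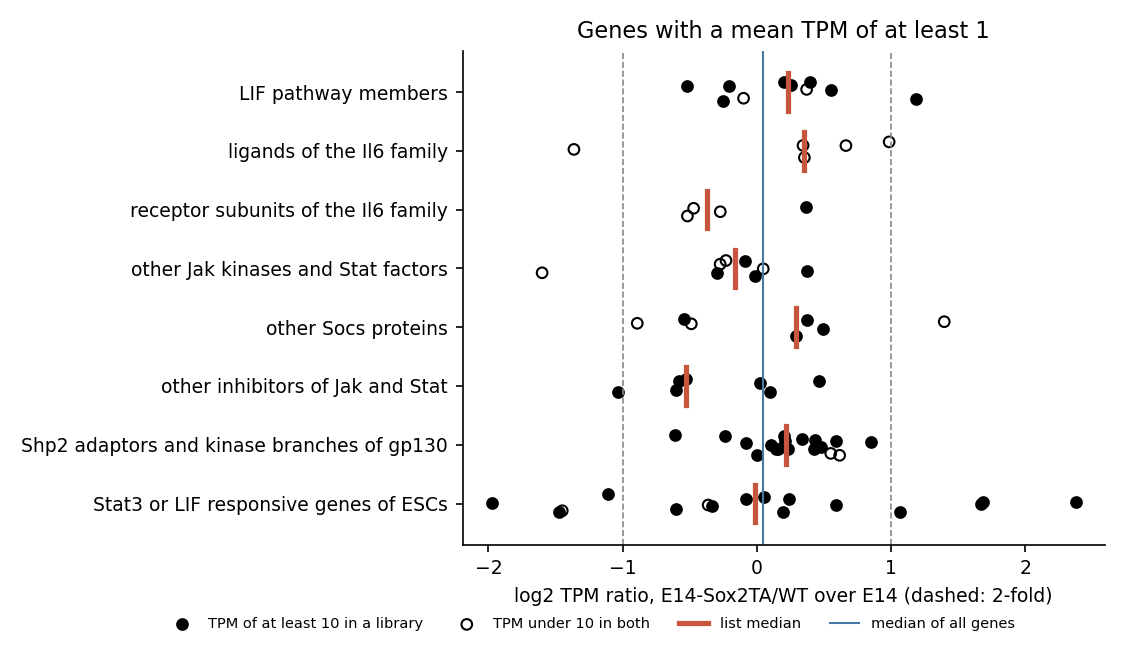
Log2 TPM ratio of genes that averaged a TPM of 1 or more in the members and in 7 other lists of the pathway. Filled points reached a TPM of 10 in a library, open points did not, red bars are list medians, the blue line is the median of all genes (0.04) and dashed lines mark 2-fold. The list of LIF-responsive genes has points past 2-fold on either side, while its median is -0.01.

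**Figure D5:**
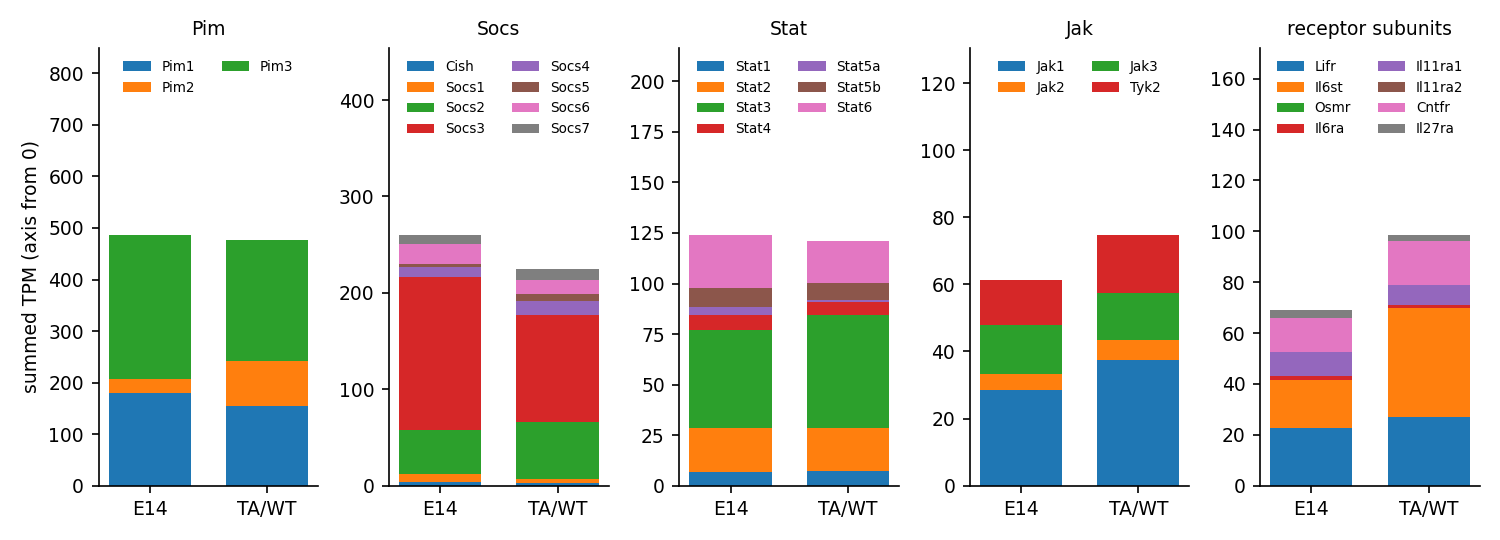
Summed TPM of the Pim, Socs, Stat and Jak families and of the receptor subunits in E14 and E14-Sox2TA/WT (TA/WT) cells, stacked by gene, each axis from 0. The Pim total is 485.6 and 476.5, while the receptor total goes from 69.2 to 98.4, with the Il6st segment growing most.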

How the data were processed

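Expression of genes was taken from a table for the mm10 build, with 1 library per genotype, 60263536 and 44609228 reads and no unmapped column of values. As deposited, each gene had a raw read count, which is not normalized. Beside it the authors gave an FPKM value, corrected for transcript length and library depth, and a TPM value, corrected for length and brought to a common total (both as deposited). The submitters' processing notes name HISAT2 2.1.0 and StringTie 2.1.3b, without their settings; strand and multi-mapped reads are not given in the sources used here. The TPM ratio (E14-Sox2TA/WT over E14) was taken with no pseudocount, and genes reaching a TPM of 10 in either library were counted past 2-fold. The threshold and the filter are those of the study. The counts they gave here over the whole table (379 higher and 370 lower) differ from those the study reports, and the reason was not tested. A 95% interval came from the read counts by the exact Clopper-Pearson method (levels by exact Poisson limits, ratios within a library on the log scale) and covers counting error only. The floor for genes without reads was 3 reads. Alternatives were FPKM, CPM, TMM (edgeR 4.0.16) and median-of-ratios (DESeq2 1.42.0) scaling, centring on all genes or on the chromosome, pseudocounts of 0.1 and 1, rescaling without the 10 highest genes, other filters and thresholds, and removal of a trend (medians in 20 bins each of GC content, then length, for the 23977 genes with a GENCODE M21 transcript). No p-value is given, since no variation between cultures was measured. TPM was a constant multiple of FPKM within 1% at all listed genes. By BLAST+ 2.17.0, no member had a copy of at least 200 bases at 95% identity in another gene of the table; Pim1 shares 488 of 3362 exon bases with the antisense gene Gm26885, Stat3 72 of 9527 with Stat5a and Jak1 4 with Raver2. Members and lists were chosen with earlier results of these data known, and named genes followed a rule: all members, and in other lists the genes past 2-fold and the highest and lowest ratio. Of the genes taken by this rule, 1 is not reported here.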

Additional observations from a re-analysis of the deposited data

How the results depend on the processing

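The sign of the log2 ratio was kept in all 100 values of the 10 members under 10 other settings, and in all 190 values of the 19 other genes taken by the naming rule. This was largely fixed in advance. Pseudocounts cannot turn a sign, and no setting moved the median of all genes by more than 0.14, below the smallest positive member ratio (Stat3, 0.20). The 19 genes were taken for a ratio past 2-fold or the highest or lowest of a list. Of the 100 member values, 33 moved by more than 0.5 of the width of their counting interval. The number of members more than 2-fold higher (1, Il6st) fell to 0 with the GC and length trend removed and at a 3-fold threshold. For Il6st the removal rests on a length that the deposited FPKM does not share. The median of the members, 0.23, was 0.085 by FPKM, 0.14 by CPM and 0.037 with the trend removed, where the median of all genes was -0.10, -0.10 and 0.00. The trend also turned the median of the other Socs genes from 0.29 to -0.069. Over all genes, 379 were higher and 370 lower, against 280 and 496 by CPM and 278 and 496 by FPKM. Without a filter the counts were 1836 and 3388, at a TPM of at least 1 they were 886 and 1366, and at 1.5-fold and 3-fold they were 1291 and 955, and 104 and 136. The lower count was 597 at a TPM of at least 5 and 212 at 20. These filters and thresholds admit more or fewer genes by construction, and the cause of the GC trend was not tested. No paired analysis was possible because each genotype had 1 library, and no library could be left out. At the depth of Lif (652 and 407 reads), its interval ran from -0.28 to 0.08, so a log2 difference within that range is not excluded for Lif.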
